A study of Mus musculus with 4 samples.

Results

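Immediate early genes are switched on within minutes of a stimulus, from promoters that are already poised and without the need for new protein. Calcium and kinase signals reach them through the factors CREB, SRF with its Elk partners, and MEF2. Some encode transcription factors, among them the AP-1 proteins and the Egr zinc finger proteins, and others encode effectors such as the synaptic protein Arc. In the cerebellum they are known to respond to motor activity, stress and handling.

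The 10 genes described here were fixed by symbol: Fos, Fosb, Junb, Egr1, Egr2, Egr3, Arc, Nr4a1, Npas4 and Dusp1. All 10 were found among the 24015 genes of the count table, and 9 had enough counts to be tested, among 15117 genes tested in all. Egr2 was too low. The study measured poly(A) RNA in the dissected cerebellum of adult C57BL/6N mice aged 140 to 150 days. Mice heterozygous for an Arid1b knockout (Arid1b encodes a subunit of the BAF nucleosome remodelling complex) were compared with wild type littermates, 1 male and 1 female per genotype. The libraries are called Het-M, Het-F, WT-M and WT-F below, for heterozygote or wild type and male or female. No treatment is named, and the labels do not say which part of Arid1b was deleted, in which cells, or how the animals were handled before dissection.

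Total counts ran from 15950899 to 20616219 per library. Arid1b itself stood at 52.9 CPM (counts scaled to a common library total) in Het-M and 55.8 in Het-F, and at 69.9 in WT-M and 71.0 in WT-F. Its log2 fold change was -0.37 ± 0.11 (SE; edgeR quasi-likelihood test, adjusted p = 0.243). The tissue carried its defining markers: all 12 granule cell and all 10 Purkinje cell markers were detected in each library. WT-F stood apart from the other libraries in several marker lists, and Het-M in others given below. The summed brainstem neuron markers were at 155 CPM in WT-F, against 310.4 to 380.3 CPM in the others. The summed granule cell markers rose from 3932 CPM in Het-M through 4415 in Het-F and 5203 in WT-M to 6021 in WT-F. The libraries differ in genotype or sex and so came from different animals, but the labels do not say whether each is 1 mouse or a pool, and no group of the same genotype and sex has a second library. In whole tissue, fewer cells of a type and less RNA per cell cannot be told apart.

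The promoters of 7 of the 10 genes were matched in RefSeq (GRCm38.p6), not those of Egr1, Egr3 and Arc. They gave 11 windows of 250 bases that end at an annotated start. Egr2 gave several of these, and some of its windows overlap for most of their length. Counts over the 11 windows thus take in the same letters more than once. Coordinates below are in that build, while the build named for the counts is mm9. The letters TGACG, the core of the cAMP response element (CRE) that CREB binds, were found on either strand in at least 1 window of all 7 genes and in 9 of the 11 windows (81.8%). Over 32851 promoter windows of this length the share was 17.8%. The full element TGACGTCA, which contains the core on both strands, was found in Dusp1 and in 1.55% of all windows. A match describes the letters and does not show a bound site. The windows of the AP-1 genes are shown because Fos, Fosb and Junb were all highest in WT-F, and that of Dusp1 because it holds the full element and its level varied least over the libraries. Capitals mark, on either strand, the CRE and its core, the TATA box TATAAA, the AP-1 site TGANTCA, the EGR site GCGNGGGCG and the CArG box of SRF.
Fos, chr12:85473640-85473889, plus strand: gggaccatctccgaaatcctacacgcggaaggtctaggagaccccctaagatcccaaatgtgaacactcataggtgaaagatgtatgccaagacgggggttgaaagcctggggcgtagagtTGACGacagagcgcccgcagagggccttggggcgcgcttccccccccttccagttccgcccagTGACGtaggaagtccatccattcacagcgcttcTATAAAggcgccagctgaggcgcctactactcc
Fosb, chr7:19310046-19310295, minus strand: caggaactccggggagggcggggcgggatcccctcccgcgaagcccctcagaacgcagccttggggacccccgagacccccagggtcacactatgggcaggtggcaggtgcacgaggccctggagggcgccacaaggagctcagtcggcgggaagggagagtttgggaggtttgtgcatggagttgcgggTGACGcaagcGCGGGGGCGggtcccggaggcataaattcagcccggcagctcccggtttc
Junb, chr8:84978749-84978998, minus strand: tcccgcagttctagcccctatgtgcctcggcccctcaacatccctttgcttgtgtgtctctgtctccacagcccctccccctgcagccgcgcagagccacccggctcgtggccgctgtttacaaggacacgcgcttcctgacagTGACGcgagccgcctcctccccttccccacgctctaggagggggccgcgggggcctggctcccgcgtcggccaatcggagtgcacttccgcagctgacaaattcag
Dusp1, chr17:26508473-26508722, minus strand: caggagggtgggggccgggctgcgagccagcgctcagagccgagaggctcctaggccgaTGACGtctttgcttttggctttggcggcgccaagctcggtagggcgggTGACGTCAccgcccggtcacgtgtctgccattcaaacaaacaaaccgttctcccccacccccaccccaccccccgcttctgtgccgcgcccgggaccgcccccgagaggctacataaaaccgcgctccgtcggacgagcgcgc

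In these windows Fos holds a CRE core 66 bases before its start and another at 129, with a TATA box at 33. Fosb has a core at 60 and, just after it, an EGR site at 50. Junb has a core at 106. Dusp1 has the full element at 143 and a further core at 191. TATAAA was found in 12.4% of all windows and the EGR site in 4.7%. The AP-1 site was in 6.75% and the CArG box in 1.47% of all windows, and neither was in the windows shown. Of the windows not shown, those of Egr2 included matches to the CArG box, and that of Nr4a1 held an EGR site.

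Per kilobase of the longest annotated transcript, the genes fell into a high and a low tier. Arc was highest with 14.3 ± 2.35 CPM per kb (mean ± SD over 4 libraries). Dusp1 (11.97), Egr1 (11.1), Fos (8.04), Junb (7.85) and Nr4a1 (6.67) followed. Each neighbour in this order overlapped the next in its range over libraries. The low tier began with Npas4 at 0.96 ± 0.105 CPM per kb, whose range of 0.858 to 1.06 lay below the 5.97 to 7.95 of Nr4a1. Npas4, Fosb (0.745) and Egr3 (0.586) overlapped in that order. Egr2 was last at 0.0672 and did not overlap Egr3.

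**Figure D1:**
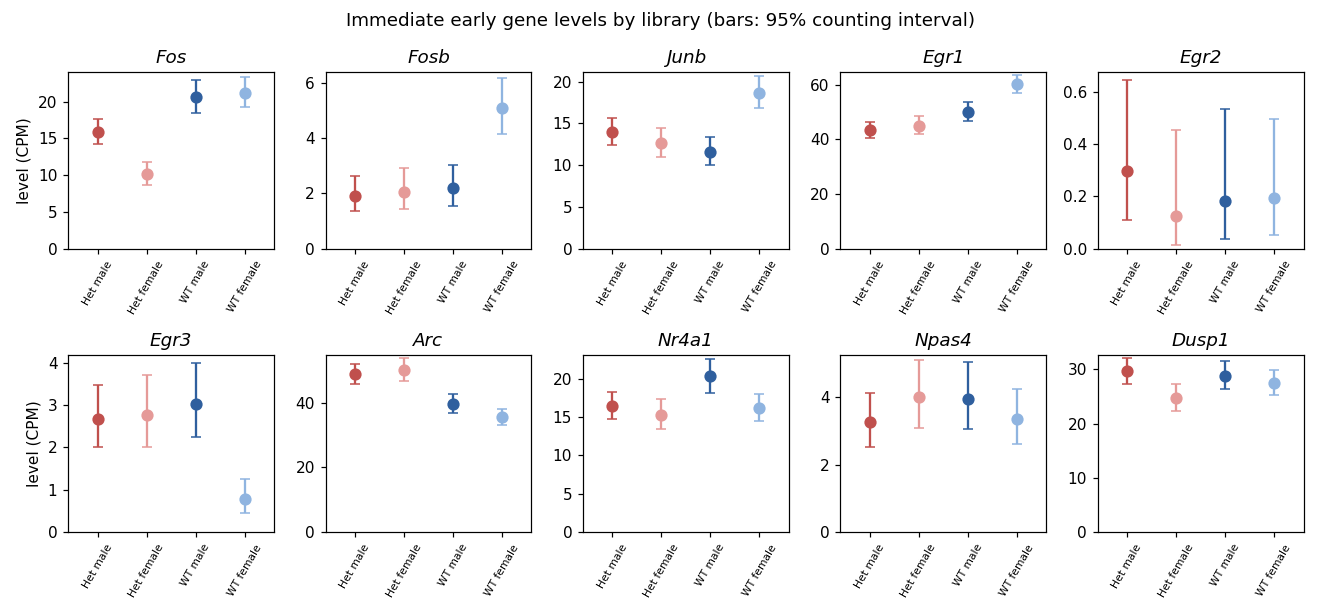
Level of each immediate early gene in CPM (y axis, from 0) in the 4 libraries (x axis), with exact 95% Poisson counting intervals as bars. Fosb and Egr3 each had 1 library far from the other three, WT-F, at 5.09 and 0.776 CPM.

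Between the genotypes, 0 of the 9 tested genes passed edgeR's quasi-likelihood test, and 0 passed with DESeq2, limma-voom or edgeR's likelihood ratio test. DESeq2 gave no adjusted p for Fosb, Egr3 and Npas4, so its count does not cover these genes. Over all 15117 genes 3 passed the quasi-likelihood test (0.0198%), and the share with limma-voom was the same. DESeq2 called 0.317% of the 10721 genes to which it gave an adjusted p, and the likelihood ratio test 1.1% of 15117. With shares this low, a count of 0 is what the background gives. At an unadjusted p under 0.05, 3 of the 9 were taken in (Fos, Egr1 and Arc), where 11.7% of all genes were. Of the 9 genes, 7 were lower and 2 higher in the heterozygotes. With 3 libraries, sex and genotype together leave no residual degree of freedom, so each fit with a library left out has genotype alone. On all 4 libraries, the fit of genotype alone gave 7 lower and 2 higher and called 0 of the 9 and 0 of all genes. Without WT-F the numbers were again 7 and 2, with Junb now higher and Egr3 lower, and without any of the other libraries they were 6 and 3. Their median log2 fold change was -0.15, beside 0.0063 over all tested genes. For 4 genes the genotypes did not overlap: both heterozygotes were below both wild types for Fos, Fosb and Egr1, and above them for Arc. Over all tested genes 44.7% did not overlap, 22.6% below and 22.1% above, so this share (44.4% of the 9) is that of the background.

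Fos, the partner of Jun proteins in AP-1, was measured at 15.9 CPM in Het-M, 10.1 in Het-F, 20.6 in WT-M and 21.2 in WT-F. The wild types were nearly level, and the lowest value was that of Het-F, with 161 counts. The means were 12.98 ± 4.09 and 20.9 ± 0.454 CPM (SD, n = 2 each). On the log2 scale the fold change was -0.71 ± 0.20 (SE) and did not pass (edgeR quasi-likelihood test, adjusted p = 0.209). It was -0.41 without Het-F and -1.06 without Het-M. With genotype alone on all 4 libraries it was -0.68 (edgeR, adjusted p = 0.343). Without WT-F, also with genotype alone, Fos stood at -0.65 and passed (edgeR, adjusted p = 0.0191), in a fit that called 4.07% of all genes and whose spread comes from the heterozygotes alone. It also passed with no filter on low counts (adjusted p = 0.00723), where 2.92% of all genes were called.

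Fosb, a second Fos protein, was low and even in 3 libraries. It stood at 1.92 CPM in Het-M, 2.07 in Het-F and 2.19 in WT-M, and at 5.09 in WT-F. WT-M lay just above the heterozygotes, within its counting interval of 1.53 to 3.03 CPM, and WT-F was 2.33 times as high as WT-M. The log2 fold change between genotypes was -0.77 ± 0.37 (SE; edgeR, adjusted p = 0.459). Without WT-F it was -0.13.

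Junb, a Jun protein that pairs with Fos proteins, ran from 11.5 CPM in WT-M through 12.6 in Het-F and 13.9 in Het-M to 18.7 in WT-F. Both heterozygotes thus lay between the wild types. The log2 ratio was 0.27 between the males and -0.56 between the females, and the fitted change was -0.15 ± 0.22 (SE; edgeR, adjusted p = 0.849). It turned to 0.20 without WT-F. In the annotation an exon of Prdx2 overlaps Junb on the other strand, and one of Ergic1 overlaps Dusp1. No source used here says whether reads were counted by strand, so the counts of Junb and Dusp1 are uncertain to that extent.

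Egr1, the most abundant zinc finger factor of the set, stood at 43.3 CPM in Het-M, 45.0 in Het-F, 50.02 in WT-M and 60.05 in WT-F. The heterozygotes were alike and both lay below the wild types. The means were 44.1 ± 1.23 and 55.0 ± 7.09 CPM (SD, n = 2 each). On the log2 scale the fold change was -0.31 ± 0.12 (SE; edgeR, adjusted p = 0.371). The change was -0.18 without WT-F and -0.44 without WT-M. Egr2, known from Schwann cells and hindbrain patterning as well as from activity, had 6, 2, 3 and 4 counts in Het-M, Het-F, WT-M and WT-F. A floor of 3 counts corresponds to 0.146 to 0.188 CPM in these libraries, so no difference was detectable at this depth.

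Egr3, the activity-regulated relative of Egr1, went the other way in WT-F. Its level was 2.66 CPM in Het-M, 2.76 in Het-F and 3.04 in WT-M, but 0.776 in WT-F. That library had 16 counts, and its counting interval of 0.444 to 1.26 CPM lay below those of the other libraries, the lowest of which began at 1.9996. The log2 fold change between genotypes was 0.69 ± 0.49 (SE; edgeR, adjusted p = 0.643). It turned to -0.17 without WT-F and was 1.80 without WT-M. Egr1 and Egr3 thus stood at opposite ends in the same library.

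Arc, which moves to synapses and takes part in the removal of AMPA receptors, was the member that lay higher in both heterozygotes. It was measured at 49.0 CPM in Het-M and 50.2 in Het-F, against 39.7 in WT-M and 35.6 in WT-F. The means were 49.6 ± 0.862 and 37.7 ± 2.93 CPM (SD, n = 2 each). On the log2 scale the fold change was 0.40 ± 0.13 (SE), or 1.32-fold, and did not pass (edgeR, adjusted p = 0.267). With each library left out in turn it stayed between 0.32 and 0.48.

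Nr4a1, an orphan nuclear receptor, was highest in WT-M at 20.3 CPM. The other libraries were close together, with 16.4 in Het-M, 15.2 in Het-F and 16.2 in WT-F. The log2 fold change was -0.19 ± 0.17 (SE; edgeR, adjusted p = 0.707), and -0.025 without WT-M. Npas4, a factor found almost only in neurons and induced by calcium entry, had the smallest genotype change. It stood at 3.25 and 4.01 CPM in Het-M and Het-F and at 3.95 and 3.35 in WT-M and WT-F, all within overlapping counting intervals, with a log2 fold change of -0.01 ± 0.30 (SE; edgeR, adjusted p = 0.996). Dusp1, a phosphatase that switches off MAP kinases, stood at 29.7, 24.7, 28.9 and 27.5 CPM in Het-M, Het-F, WT-M and WT-F. Its log2 fold change was -0.05 ± 0.14 (SE; edgeR, adjusted p = 0.926). The highest Dusp1 level was 1.20 times the lowest, the narrowest spread of the 10 genes.

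**Figure D2:**
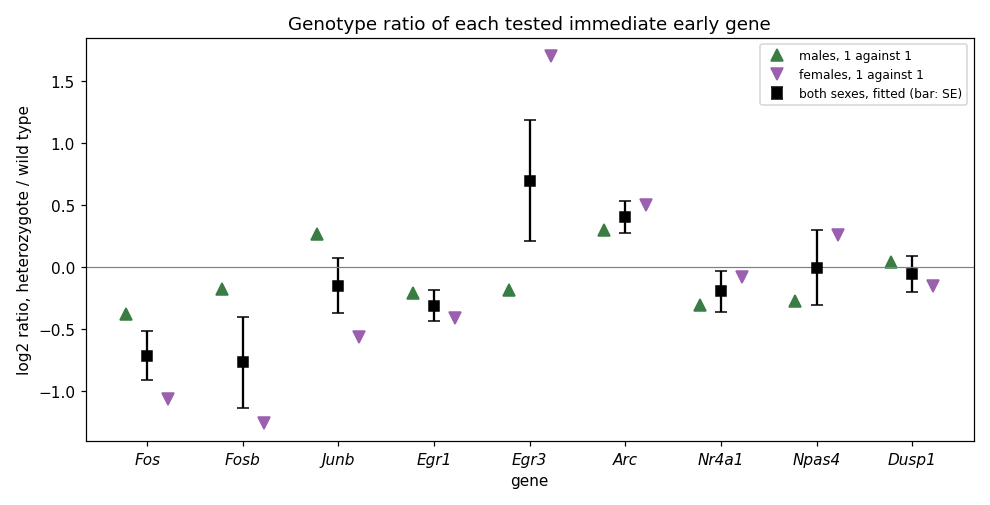
Log2 ratio of heterozygote to wild type (y axis) for the 9 tested genes (x axis). Squares are the fitted change with its SE, triangles the ratio of 1 library to another within males (up) or females (down). Fos, Fosb and Egr1 were below 0 and Arc above 0 in each sex, while Junb and Egr3 had opposite signs.

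The genotype ratio had the same sign in both sexes for 5 of the 9 genes, namely Fos, Fosb, Egr1, Arc and Nr4a1. The sexes differed most for Egr3, with a log2 ratio of -0.18 in males and 1.70 in females, and for Fosb, with -0.18 and -1.25. The test of that difference gave 1.82 ± 0.95 (SE) for Egr3 and -1.20 ± 0.77 (SE) for Fosb, female minus male, and neither passed (edgeR, adjusted p = 0.998 for each). Junb, with -0.84 ± 0.39 (SE), had the smallest unadjusted p of the 9 in edgeR's test, 0.0565. None of the 9 passed, nor did any reach an unadjusted p under 0.05, where 3.55% of all genes did and 0.0198% passed. Sex alone called 0 of the 9 and 0.0595% of all genes, and at an unadjusted p under 0.05 it took in 0 of the 9 and 3.82% of all genes. Its largest fitted changes, female against male, were -0.85 ± 0.49 (SE) for Egr3 and 0.70 ± 0.37 (SE) for Fosb (edgeR, adjusted p = 0.994 for each). With 1 library per sex and genotype, a single library that stands apart enters the genotype change, the sex change and the difference between the sexes, and the difference takes up more of it than the other values do. It also enters the residual of each fit, so the adjusted p-values of Egr3 and Fosb say little about whether the sexes differ for them.

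**Figure D3:**
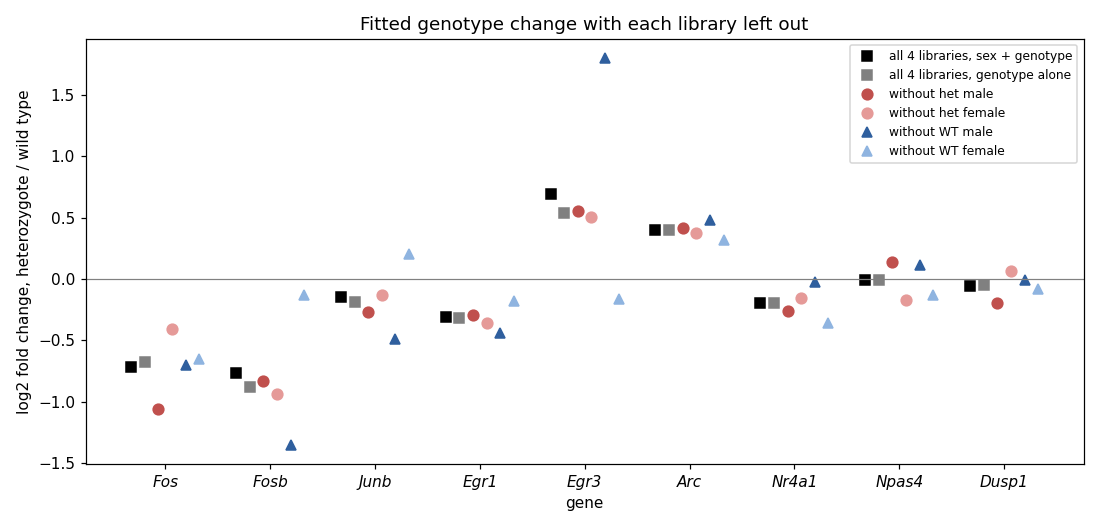
Fitted log2 fold change, heterozygote against wild type (y axis), of the 9 tested genes (x axis) with all 4 libraries (black with sex and genotype, grey with genotype alone) and with each left out (genotype alone). Arc stayed between 0.32 and 0.48 and Fos between -1.06 and -0.41, while Egr3 ran from -0.17 to 1.80.

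Leaving out WT-M, so that the female alone stands for the wild types, called 6 of the 9 genes: Fos, Fosb, Junb and Egr1 as lower and Egr3 and Arc as higher. That fit called 17.8% of all genes, and the pair of heterozygotes alone sets its spread. WT-F was the highest library for 4 of the 9 genes (Fos, Fosb, Junb and Egr1) and the lowest for 2 (Egr3 and Arc). Over all tested genes it was highest for 29.7% and lowest for 32%.

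Other cell markers stood apart in the same library. All 16 endothelial and mural cell markers were highest in WT-F, and 0 of them were at 0 counts in any library. Their sum was 489 CPM there, 329 in WT-M and 309 and 274 in Het-M and Het-F. All 16 had lower fitted values in the heterozygotes (median log2 fold change -0.50), and 0 passed. Both heterozygotes lay below both wild types for 13 of these 16 markers, where 22.6% of all tested genes lay so. The 12 granule cell markers, 0 of them at 0 counts, were all below both wild types in the heterozygotes, with a median of -0.44 and 0 passed. Their sums were 3932 and 4415 CPM in Het-M and Het-F and 5203 and 6021 in WT-M and WT-F. All 10 Purkinje cell markers were highest in WT-F as well. Their sum was 6305 CPM there, 5325 in WT-M and 4881 and 4501 in Het-M and Het-F. Both heterozygotes lay below both wild types for 8 of these 10 markers, where 22.6% of all tested genes lay so. Also highest in WT-F were 7 of the 10 astrocyte and Bergmann glia markers, with 6394 against 5283 to 5584 CPM. The part of these cells in the values of Fos, Fosb, Junb and Egr1 was not tested. The summed brainstem neuron markers, 0 of 10 at 0 counts, were lowest in WT-F, as Egr3 was. Of the 10 markers 7 were lowest there and 2 highest. Their sum was 155 CPM there, against 310.4 in WT-M and 380.3 and 358.0 in Het-M and Het-F. Their part in the low Egr3 value was not tested. Of these 10 markers 8 had higher fitted values in the heterozygotes (median log2 fold change 0.98) and 2 passed, Slc6a5 and Th. Over all tested genes 0.0198% passed, and the list was chosen with earlier results of these data known. The name of the list does not show which cells gave these counts. The other lists had medians of -0.32 (Purkinje cells), -0.12 (astrocytes and Bergmann glia), 0.15 (oligodendrocytes), 0.18 (microglia) and 0.48 (choroid plexus), and 0 of their genes passed. Het-M stood apart in the last 2 of these. All 10 microglia markers were highest there, with a sum of 195 CPM against 140 to 156, and 7 of the 8 choroid plexus markers, with 2682 against 1458 to 1548 CPM.

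**Figure D4:**
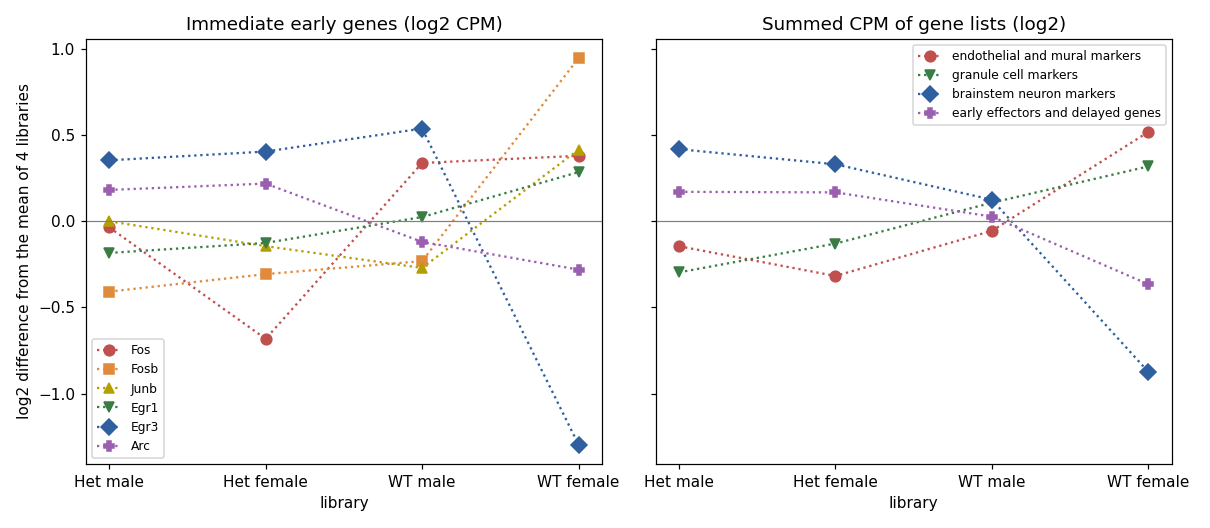
Log2 difference of each library from the mean of all 4 (y axis), for 6 immediate early genes (left) and for the summed CPM of 4 gene lists (right). Libraries are on the x axis and the dotted lines only join the points of 1 gene or list. In WT-F Fosb, Junb and Egr1 were at their highest together with the endothelial and granule cell lists, and so was Fos, nearly level with WT-M. Egr3 and Arc were at their lowest there, together with the brainstem list and the list of early effectors and delayed genes.

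The wider set of immediate early transcription factors also held values in both directions. Of 24 listed genes 23 were tested, 0 passed in either direction, 2 had an unadjusted p under 0.05, 15 were lower and 8 higher, and the list median was -0.10 (log2 fold change). Both heterozygotes lay below both wild types for 8 of them and above for 1, where 22.6% of all genes lay below and 22.1% above, and 11.7% had such an unadjusted p. Klf4 and Klf2, Krüppel-like factors also known from endothelium, had -0.67 ± 0.29 and -0.71 ± 0.31 (SE; edgeR, adjusted p = 0.399 and 0.412). Klf2 was at 5.23 and 3.07 CPM in Het-M and Het-F and at 5.77 and 7.71 in WT-M and WT-F. Atf3, a stress-induced factor, had -0.88 ± 0.41 (SE; edgeR, adjusted p = 0.437). Jun, the usual partner of Fos, stood at 62.0, 60.1 and 60.2 CPM in Het-M, Het-F and WT-M and at 85.4 in WT-F. Its log2 fold change was -0.23 ± 0.14 (SE; edgeR, adjusted p = 0.569).

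The AP-1 relatives, chosen after their values were seen, did not follow a single pattern. Jund, the steadily expressed Jun protein, was at 194 and 204 CPM in the heterozygotes and 169 and 199 in the wild types, males first. Fosl2 had a log2 fold change of 0.16 ± 0.25 (SE; edgeR, adjusted p = 0.868). Fosl1 was too low to be tested. Nr4a3, a relative of Nr4a1, was also chosen after its values were seen. It had the shape of Egr3: 2.02, 2.88 and 2.74 CPM in Het-M, Het-F and WT-M, and 0.582 (12 counts) in WT-F. Its log2 fold change was 0.76 ± 0.65 (SE; edgeR, adjusted p = 0.723). Nr4a2, a further relative, did not have that shape, at 9.32, 8.53, 13.6 and 7.42 CPM in Het-M, Het-F, WT-M and WT-F.

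Among the effectors and delayed activity genes, more had higher than lower values in the heterozygotes. All 34 listed genes were tested, 0 passed, and 6 had an unadjusted p under 0.05. Of the 34, 22 were higher and 12 lower (median log2 fold change 0.08), and both heterozygotes lay above both wild types for 10 and below for 1. Without overlap were thus 32.4% of the list, beside 44.7% of all genes (22.1% above and 22.6% below), and 11.7% of all genes had such an unadjusted p. Vgf, a secreted neuropeptide precursor, was at 120 and 112 CPM in Het-M and Het-F and at 80.7 and 48.8 in WT-M and WT-F. Its log2 fold change was 0.88 ± 0.15 (SE; edgeR, adjusted p = 0.136). Scg2, a granin of secretory granules, had 0.82 ± 0.25 (SE), Pcsk1, a prohormone convertase, 0.90 ± 0.29 (SE), and Rgs2, a regulator of G protein signalling, 0.49 ± 0.14 (SE), with edgeR adjusted p from 0.213 to 0.371. WT-F was the lowest library for 21 of the 34. Nptx2, a pentraxin that gathers AMPA receptors and was chosen after its values were seen, stood at 8.63, 9.47 and 8.51 CPM in the other libraries, heterozygotes first, and at 2.67 there. The sum of the brainstem markers was also lowest in that library (155 CPM), and its part in these values was not tested.

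**Figure D5:**
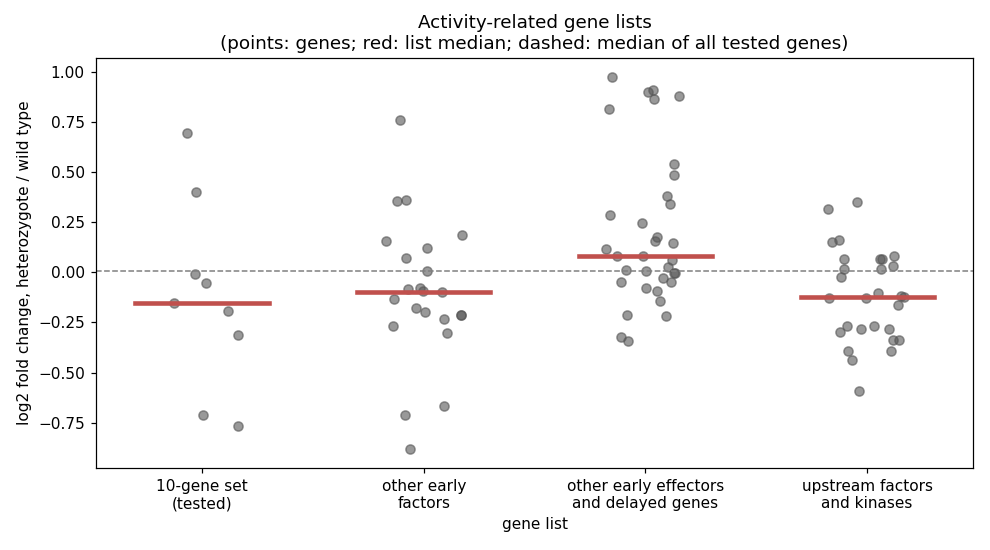
Log2 fold change, heterozygote against wild type (y axis), of each tested gene (points) in the immediate early set and in 3 related lists (x axis), with list medians in red and the median of all tested genes dashed. The medians were -0.15, -0.10, 0.08 and -0.12, and 0 genes passed the test in any of the 4 lists.

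Of the upstream factors and kinases 29 of 30 were tested, 0 passed, 11 had an unadjusted p under 0.05 (11.7% of all genes did), and 18 were lower and 11 higher (median log2 fold change -0.12). Both heterozygotes lay below both wild types for 11 and above for 4, so that 51.7% did not overlap, beside 44.7% of all genes. Camk4, the nuclear calmodulin kinase that phosphorylates CREB and is abundant in granule cells, was at 297 and 325 CPM in Het-M and Het-F and 477 and 461 in WT-M and WT-F. Its log2 fold change was -0.59 ± 0.10 (SE; edgeR, adjusted p = 0.13). Rps6ka3, a ribosomal S6 kinase that acts on CREB, had -0.44 ± 0.13 (SE), Mef2a -0.34 ± 0.10 (SE) and Creb1 -0.34 ± 0.12 (SE), with edgeR adjusted p from 0.223 to 0.306. Srf, chosen after its values were seen, was nearly level, at 37.1 and 36.9 CPM in the heterozygotes and 34.6 and 36.1 in the wild types, males first. The sum of the granule cell markers was lower in both heterozygotes too, as given above, and its part in these values was not tested.

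Responses that can accompany handling or the time of dissection were read from 3 further lists, and 0 of their genes passed. The 12 glucocorticoid response genes, of which Per1 and Errfi1 also stand in the lists above, had a median log2 fold change of 0.04, with 7 higher and 5 lower. Fkbp5, a chaperone induced by glucocorticoids, was at 19.7 and 17.4 CPM in Het-M and Het-F and 13.3 and 11.8 in WT-M and WT-F (log2 fold change 0.56 ± 0.17, SE; edgeR, adjusted p = 0.244). Fitted values of the 10 heat shock genes were split evenly, 5 up and 5 down in the heterozygotes (median log2 fold change 0.05). Hsp90aa1 was at 0.31 ± 0.11 and Hsph1 at 0.30 ± 0.10 (SE; edgeR, adjusted p = 0.293 and 0.296). The largest change in this list went down, that of Hspa1b at -0.80 ± 0.37 (SE; edgeR, adjusted p = 0.442). Hspa1b stood at 3.06 and 2.13 CPM in Het-M and Het-F and at 3.28 and 6.06 in WT-M and WT-F. The 12 clock output genes had a median of -0.10, with 8 lower and 4 higher. Both heterozygotes lay below both wild types for 6 and above for 0, where 22.6% and 22.1% of all tested genes did. Nr1d2, a nuclear receptor of the clock, was at -0.41 ± 0.10 (SE; edgeR, adjusted p = 0.189). The part of handling or time of day in the values of the immediate early genes was not tested.

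The mean profile of the 9 genes was nearly flat, since their values differed in direction. Its log2 differences from the mean of the libraries were -0.02 and -0.09 in Het-M and Het-F and 0.08 and 0.03 in WT-M and WT-F. Over these 4 libraries, the 8 genes with the smallest root mean square distance to that profile were Ahcyl1, Nol9, Sufu, Radil, Rwdd4a, Bfar, Acad8 and Impa1, with distances of 0.00565 to 0.0105. Dusp1 was the member nearest to the profile, at 0.074, and Egr3 the farthest, at 0.766.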

How the data were processed

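The labels' protocols describe stranded mRNA libraries from 4 samples, run together in 1 sequencing lane with 100 bases read from 1 end. The deposited values are raw counts of reads per gene symbol. For the steps before that, the submitters' processing notes list STAR, featureCounts, FastQC, edgeR and the build mm9, with no versions or settings. The labels give each library's genotype and sex. The members and lists were chosen with earlier results of these data known.

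Genes were filtered with edgeR's filterByExpr by genotype, which kept 15117 of 24015 genes with 99.9% of the counts. Counts were scaled by TMM and tested with edgeR 4.0.16 (R 4.3.3) by a quasi-likelihood fit, robust, on sex plus genotype. It leaves 1 residual degree of freedom. Tests were two-sided, with Benjamini-Hochberg adjustment over all tested genes at 0.05. The SE is the log2 fold change divided by the square root of F. The difference between the sexes came from a fit with genotype and the product of both codes. Untested ratios within a sex used a prior count of 2. CPM are per library total, with exact 95% Poisson intervals for counting error only. Transcript lengths came from GENCODE M21.

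Named genes were the members, Arid1b, up to 4 genes of smallest p per list with a mean of at least 1 CPM, and the 8 genes most like the members with a mean of at least 5 CPM. Those from lists of cell markers are summarised. The alternatives comprised limma-voom (limma 3.58.1), DESeq2 1.42.0, a likelihood ratio test in edgeR, other scalings and filters, no sex term, other prior counts, a minimum mean of 1 CPM for likeness, and each library left out. Scripts were tested on simulated data. Changes by genotype or by the product of both codes were recovered, but genes changed in 1 library alone were almost never called, for either term. Replicate numbers only name libraries, 1 the male and 2 the female.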

Additional observations from a re-analysis of the deposited data

How the results depend on the processing

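Under the alternatives that kept all 4 libraries, each tested gene kept the sign of its genotype change. The number past the threshold stayed at 0 except with no low-count filter, where it was 1 (Fos). With DESeq2 it leaves out Fosb, Egr3 and Npas4, which had no adjusted p. Without the sex term, which is also the fit with no replicate block, the median was -0.19 and 0 of the members were called. With a library left out and genotype as the only term, since 3 libraries leave no residual for the sex term, the number called was 0 to 6 and the median -0.26 to -0.025. In these fits the genotype change turned sign for Junb (-0.49 to 0.20), Egr3 (-0.17 to 1.80), Npas4 (-0.17 to 0.14) and Dusp1 (-0.19 to 0.067). Where 1 library is left in a genotype, it is assumed to vary like the others.

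Over all genes, 3 higher and 0 lower by genotype became 16 and 18 with DESeq2, 64 and 102 with the likelihood ratio test, 5 and 2 with DESeq2's size factors, 5 and 8 with library totals, and 290 and 263 with no filter. The higher count was 0 under the stricter filter and without the sex term. With a library left out it was 0 to 1483 higher and 0 to 1212 lower.

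For sex, 5 higher and 4 lower became 4 and 2 with DESeq2, 8 and 8 with the likelihood ratio test, and 3 and 5 with limma-voom. They were 19 and 29 with no filter, 2 and 4 under the stricter filter and 1 and 4 without the genotype term. Leaving a library out, with sex as the only term, gave 0 to 154 higher and 4 to 457 lower, and 0 to 2 members called. The change of females against males then turned sign for Fos (-0.85 to 0.24), Junb (-0.018 to 0.56), Egr1 (-0.049 to 0.38), Arc (-0.31 to 0.18) and Npas4 (-0.10 to 0.17). The cause of these shifts was not tested.

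The counts of 3 genes below and 1 above without overlap were the same under TMM and DESeq2 scaling, which were added after seeing the data. Of the 8 genes most like the members, 7 were shared with a minimum of 1 CPM. Depth limits Egr2, with 2 to 6 counts, and Egr3 in WT-F, with 16.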
